A study of Danio rerio with 7 samples.

Results

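Kinases transfer a phosphate from ATP to a protein, a lipid or a metabolite, and the genes described here are 47 entries of the kinase annotation of 1 gene module from border zone heart muscle cells of the zebrafish. They are the identifiers that the authors' deposited annotation chart of module 1 lists under kinase activity or under phosphorylation. Those 2 rows hold the same 58 identifiers, so they are not separate evidence. Of these, 9 were left out because an actin, vessel or sphingolipid row of the chart also lists them, and 2, eif2ak2 and EIF2AK3, because they encode eIF2 kinases. The 9 were ARAF, EGFR, PIKFYVE, PIP5K1A, BMPR2, EPHB2, PAK2, ptk2ab and sphk2. The 47 that remained make up 3.05% of module 1, which holds 1543 of the 4449 genes in 8 modules (34.7%).

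The cells came from adult zebrafish hearts, taken 7 days after a freezing injury and sorted for the reporter nppa:mCitrine, which marks border zone cardiomyocytes. Every plate carried the reporter; 3 plates were labelled wildtype and 4 hmga1a mutant, and hmga1a encodes a chromatin protein of the high mobility group A family. The labels name neither the mutant allele nor the number or age of the fish behind a plate. The deposited lists and charts give no value per plate or cell, so expression levels, depth and replicate error of these genes are unknown, and no difference between the genotypes can be stated for any of them.

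In tissue, receptor kinases read ligands at the cell surface, cytoplasmic kinases relay the signal, and cascades such as the ERK MAP kinase pathway carry it to transcription and translation. Phosphatases remove the phosphates again. In the heart, neuregulin acting on ErbB receptors, TGF-beta signalling and the cytokine route through JAK and STAT proteins are each known to take part in the response to injury in zebrafish.

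The 47 genes were classed as 34 protein or glycan kinases, 9 kinases of small molecules and 3 proteins that are no kinases themselves. The name of 1 further gene, unm_sa1261, carries no role. The classes follow textbook roles, except for zgc:171775, counted among the 34. Its name carries no role either, but the chart lists it in the MAPK pathway. No lipid kinase was among the 47. Of the 4 genes on a list of lipid kinases that lay in any module, PIP5K1A, PIKFYVE and sphk2 lay in module 1 and all 3 were left out with the actin or sphingolipid rows, while PI4K2B lay in module 2. The 47 are therefore called kinase-annotated genes and not protein and lipid kinases. In all, 26 symbols were written in capitals, the human style, and for those the zebrafish copy (a or b) is not known.

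Receptor tyrosine kinases were 4 of the 47. ERBB4 (ENSDARG00000063207) encodes a receptor for neuregulins, tyro3 (ENSDARG00000005356) a receptor for protein S and Gas6 that takes part in the clearance of dying cells, and epha2b (ENSDARG00000022727) and ephb4b (ENSDARG00000027112) encode receptors for ephrins on neighbouring cells. The chart places ERBB4 in 15 further terms, tyro3 in 16, epha2b in 15 and ephb4b in 13, and no other gene of the 47 exceeded 15. ERBB4, epha2b and tyro3 also stand under positive regulation of kinase activity, which ephb4b does not. EGFR and EPHB2, further receptors of the same 2 families, were in the kinase rows and were left out, EGFR for the actin row and EPHB2 for blood vessel development.

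Cytoplasmic tyrosine kinases were 6, of which 4 are described. FGR (ENSDARG00000004378) and fynb (ENSDARG00000025319) belong to the Src family, ptk6a (ENSDARG00000017947) is related to it, and JAK1 (ENSDARG00000020625) works under cytokine receptors. FGR, fynb and ptk6a shared the terms receptor binding, cell differentiation and the inner face of the plasma membrane, which JAK1 lacked. The chart places fynb in 15 further terms, FGR in 13, ptk6a in 12 and JAK1 in 11. All 6 stand under both the non-membrane spanning and the transmembrane receptor tyrosine kinase activity of the chart, so that the 10 genes listed there as receptor kinases are the 4 receptors and these 6. Only fynb of the 47 was listed under fin regeneration, a term of 11 module 1 genes that also names CCN1, HAS2 and NOTCH1.

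The kinase receptor of TGF-beta, TGFBR2 (ENSDARG00000034541), was the 1 serine/threonine receptor, and it stood in 13 further terms. Its partner receptor TGFBR1 lay in module 6. BMPR2, a receptor of bone morphogenetic proteins, was in the kinase rows and was left out for sprouting angiogenesis, and a further identifier named BMPR2 lay in module 8.

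The MAP kinase cascade and its effectors gave 5 of the 47. MAP3K20 (ENSDARG00000006978) encodes a stress-activated kinase at the head of a cascade. mknk1 (ENSDARG00000018411) encodes a kinase of the translation factor eIF4E and RPS6KA3 (ENSDARG00000035556) and rps6kal (ENSDARG00000037574) encode ribosomal S6 kinases, and all 3 are known to act below ERK. zgc:171775 (ENSDARG00000058381) carries no functional name, but the chart lists it in the MAPK pathway, C-type lectin receptor and Salmonella infection rows. Symbols of the central ERK route, map2k1, map2k2 and mapk3, are in the name table and matched no gene of any module. Most symbols of this cascade matched none, as a list of 61 found 15 genes in any module. In the MAPK signalling row of 37 module 1 genes, 9 were among the 47: these 5, the receptors epha2b, ERBB4 and TGFBR2, and ikbkg. A further 3, EGFR, PAK2 and ARAF, were kinases left out. The other 25 included the ligands fgf1b and tgfb1b, the exchange factor SOS2, RASA1, which switches Ras off, the phosphatase DUSP5, and the transcription factors MYC, MAX and DDIT3. In the authors' deposited table this row has a fold enrichment of 1.56, with an unadjusted p of 0.00683 and an adjusted p of 0.148.

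AGC kinases, a class of serine/threonine kinases named after PKA, PKG and PKC, were 5. sgk1 (ENSDARG00000025522) and SGK3 (ENSDARG00000062460) are kinases that act beside AKT, PRKCZ (ENSDARG00000043332) encodes an atypical protein kinase C of cell polarity, and grk5 (ENSDARG00000032801) and GRK6 (ENSDARG00000032157) encode kinases that desensitise G protein-coupled receptors. The relatives of AKT lay apart from AKT itself, with akt2 in module 6 and akt3b in module 5. Of the 47, grk5 alone was under positive regulation of Wnt signalling, a term of 6 module 1 genes.

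Of kinases related to the calmodulin-dependent class there were 5. pim2 (ENSDARG00000059001) and PIM3 (ENSDARG00000055129) encode kinases without a regulatory domain whose amount follows their expression, PRKD3 (ENSDARG00000079967) a diacylglycerol-responsive kinase, and brsk1a (ENSDARG00000077124) and hunk (ENSDARG00000091317) relatives of AMPK. The other 4 genes with proline-directed or related kinases were gsk3bb (ENSDARG00000052468), a kinase of Wnt and insulin signalling, CDK15 (ENSDARG00000006093) and CDK17 (ENSDARG00000079470), little studied cyclin-dependent kinases, and clk4a (ENSDARG00000089372), which phosphorylates splicing factors. Of these, gsk3bb had 11 further terms, among them focal adhesion and ErbB signalling, and the other 3 had the same 5.

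A further 4 fall outside these classes. POMK (ENSDARG00000003208) encodes a kinase of the sugar chain on dystroglycan, whose loss causes muscular dystrophy in humans, and it alone of the 47 stood under muscle structure development and swimming. alpk2 (ENSDARG00000079637) encodes an alpha-kinase known from heart development in zebrafish. PDK2 (ENSDARG00000059054) encodes a kinase that switches pyruvate dehydrogenase off, and PLK3 (ENSDARG00000038754) a stress-responsive polo-like kinase. The chart listed alpk2 under protein phosphorylation and not under protein kinase activity, the 1 gene that separates the 35 and 34 members of those rows.

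Kinases of small molecules were 9, of which 8 are described. PFKFB3 (ENSDARG00000001953) and PFKFB4 (ENSDARG00000029075) encode the bifunctional enzymes that set fructose 2,6-bisphosphate, an activator of glycolysis, and with FBP2 they make up the fructose metabolism row of 3 genes. uck2b (ENSDARG00000022213) and uckl1a (ENSDARG00000001686) belong to the uridine and cytidine kinases of pyrimidine salvage, ak5l (ENSDARG00000017739) to the adenylate kinases, and CKB (ENSDARG00000069752) is the brain-type creatine kinase. HYKK (ENSDARG00000074341) encodes a kinase of hydroxylysine, and ITPKC (ENSDARG00000067741) a kinase of inositol trisphosphate, the messenger that releases calcium. This group had 1 to 4 further terms each, against 13 to 16 in the receptor tyrosine kinases.

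The last 4 do not carry a kinase by name. ikbkg (ENSDARG00000017037) encodes NEMO, the regulatory subunit of the IkappaB kinase complex, MOB3A (ENSDARG00000019113) a member of the MOB family of kinase co-activators, and PPM1E (ENSDARG00000026499) a protein phosphatase. The chart itself lists PPM1E also under protein dephosphorylation, phosphatase activity and phosphoprotein phosphatase activity. IKBKB, the catalytic partner of ikbkg, lay in module 2. unm_sa1261 (ENSDARG00000031618) is a name without a role, and its 5 further terms were the same as those of sgk1.

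Across the chart the 47 genes were listed in 51 of the 200 other terms of module 1, with a median of 5 terms per gene. They fell into 29 distinct sets of terms. The most common set, of 5 terms, was shared by 12 genes, namely brsk1a, CDK15, CDK17, clk4a, GRK6, hunk, PDK2, pim2, PIM3, sgk1, SGK3 and unm_sa1261. These carry transferase activity, ATP binding, nucleotide binding, protein kinase activity and protein phosphorylation, which is the annotation any protein kinase can have. All 47 were among the 98 transferase genes of module 1, 42 among the 105 ATP-binding genes and 37 among the 107 nucleotide-binding genes. Since a kinase transfers a phosphate from ATP, these counts largely restate the annotation that chose the genes. ATP binding was lacking in HYKK, ITPKC, MOB3A, PPM1E and ikbkg. Under membrane stood 434 of all 1543 module 1 genes, 10 of the 47 (21.3%) and 5 of the 11 genes left out. The bases are unlike, since all 47 are annotated. Of the 1543, the chart counted only 931 as annotated for the kinase activity term. Whether these shares differ was not tested.

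Kinase activity was listed in the charts of modules 1, 2 and 6, and in no other chart, each of which stops at an unadjusted p of 0.1. In module 1 it took 58 of 931 annotated genes (6.23%), against 720 of 19276 in the background (3.74%). In the authors' deposited table this is a 1.67-fold enrichment, with an unadjusted p of 0.000165 and an adjusted p of 0.0888. Module 6 had 28 of 297 genes (9.43%), for which the authors' deposited table gives a 2.52-fold enrichment and an adjusted p of 0.00345. Module 2 had 25 of 410 (6.10%), and the authors' deposited table gives a 1.63-fold enrichment with an adjusted p of 1. So of the 3 charts, only that of module 6 holds the term at an adjusted p under 0.05, and whether modules 1 and 6 differ was not tested. The kinases of module 6 include INSR, akt2, PRKAA1, HK1, PFKM and PFKP, and those of module 2 include PIK3CA, MAPK14, ROCK1 and MYLK3. The tyrosine kinase terms were listed for modules 1 and 3. The authors' deposited table gives a 2.52-fold enrichment of protein tyrosine kinase activity in module 1 (15 genes, adjusted p = 0.393) and a 4.33-fold enrichment in module 3 (6 genes, adjusted p = 0.439).

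**Figure D1:**
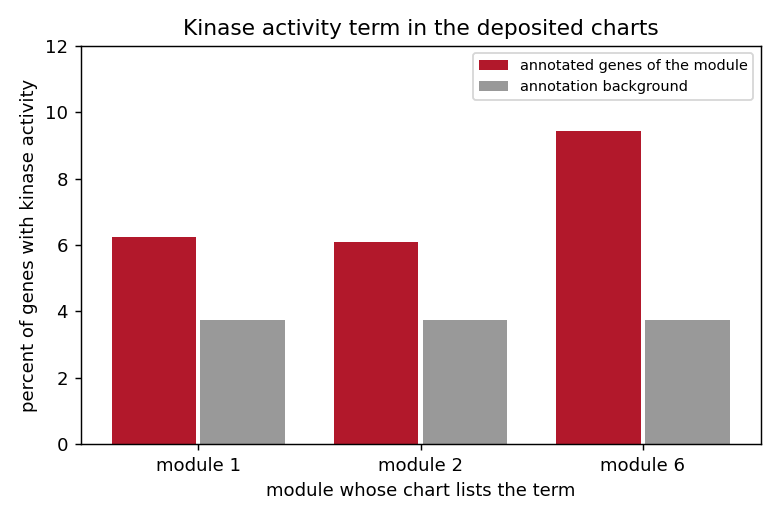
Bars show the percent of annotated genes with the kinase activity term in each module whose deposited chart lists it (red) and in the annotation background (grey). The red bars stand at 6.23% for module 1, 6.10% for module 2 and 9.43% for module 6, and the grey bars at 3.74%.

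To place the 47 among all kinases, 16 lists of kinase symbols were looked up in the modules. They found 168 genes, of which 61 lay in module 1 (36.3%, exact 95% interval 29% to 44.1%, Clopper-Pearson, counting error only). Of all named genes in the modules, 33.4% lay in module 1, which lies within that interval, and the 61 include 39 of the 47 that were chosen for lying there. The other 107 lay 32 in module 6, 24 in module 2, 15 each in modules 4 and 5, and 7 each in modules 3, 7 and 8. The modules differ in size. Of named genes, the lists matched 8.63% in module 6, 5.34% in module 8, 5% in module 1 and 4.69% in module 2. The shares were 3.8% in module 4, 3.72% in module 5, 2.47% in module 3 and 2.08% in module 7. Whether these shares differ was not tested. The rest of the 61 were 10 genes left out and 12 genes in neither kinase row.

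Of the 9 genes matched by the list of cytoplasmic tyrosine kinases, 6 lay in module 1 (66.7%), all of them among the 47 chosen for lying there. The exact interval, 29.9% to 92.5%, takes in the 33.4% of all named genes. SYK, jak3 and MATK lay in module 3. The list did not match ptk2ab, a focal adhesion kinase of module 1 that was left out, so these are not all genes of the class. Of 18 receptor tyrosine kinases 7 lay in module 1 (38.9%), among them 4 of the 47 and DDR2, a collagen receptor outside the kinase rows. The rest included INSR in module 6, FGFR2 and flt1 in module 3 and KDR in module 8. The MAP kinase cascade list had 4 of 15 genes in module 1 (26.7%) and 6 in module 2, among them MAPK14, mapk13 and MAP3K8. Of 22 kinases of the calmodulin and AMPK-related list, 6 lay in module 1 (27.3%), 7 in module 6 and 5 in module 4. Those in module 4 include both identifiers named TTN, since titin carries a kinase domain. None of 5 casein kinases lay in module 1, which with 5 genes allows a share of up to 52.2% (exact interval). Metabolite and nucleotide kinases lay 8 of 24 in module 1 (33.3%), near the 33.4% of all named genes. The creatine kinases ckma, ckmb and CKMT2 lay with AK1 in module 7. With so few genes in a class these counts describe the modules and are no test of a difference between classes.

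**Figure D2:**
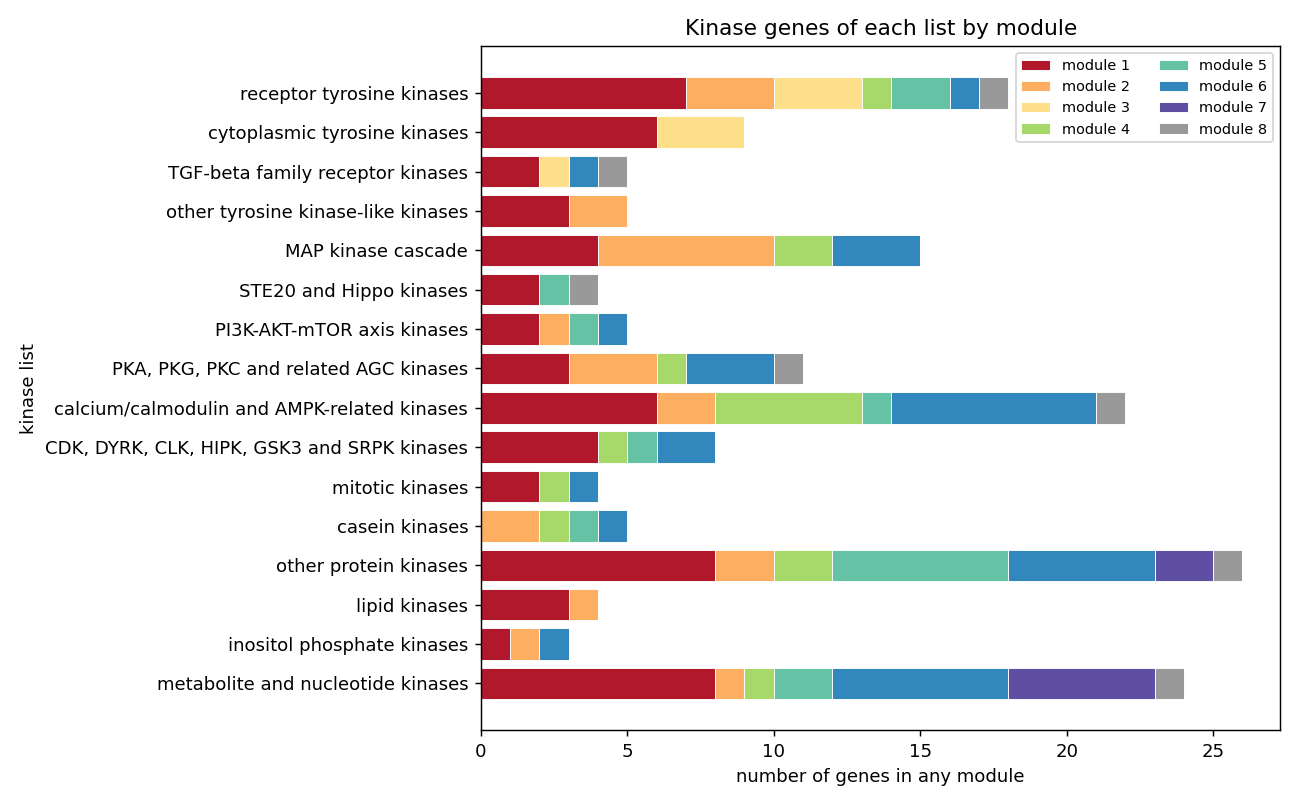
Bars give, for each of 16 kinase lists, the number of genes found in any module, coloured by module. The matched cytoplasmic tyrosine kinases are split between module 1 (6 genes) and module 3 (3 genes), and the casein kinases have no gene in module 1.

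Of the 12 genes of the kinase lists that lay in module 1 outside both kinase rows, 9 are in the protein kinase activity or protein phosphorylation rows of the same chart. These are DDR2, irak1, IRAK3, TAOK1, MYO3A, NUAK2, nek11, NRBP2 and pkdccb. ETNK1 and BRD2 are among those in neither. IRAK3 and NRBP2 are known as pseudokinases, and BRD2 is best known as a chromatin reader. The protein kinase rows also name PEAK1, pimr212 and si:ch73-206d17.1, which the lists do not hold. The 47 are thus not all kinases of module 1.

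No named copy of the 47 lay in module 1 beside its partner. For 5 of the 47 a further gene of the same name, or with the other ending of a and b, lay in a module, and in 0 of the 5 pairs were both in module 1. Of all named genes 33.4% lay in module 1, so 5 pairs are too few to set these genes apart. Of epha2b and epha2a the second lay in module 4, and of uckl1a and uckl1b the second lay in module 6. The further identifier named RPS6KA3 lay in module 2, that of PDK2 in module 6 and that of CKB in module 7, with the muscle creatine kinases. Among the other 8 such pairs on the kinase lists, 2 lay in the same module, ckma with ckmb in module 7 and the 2 identifiers of TTN in module 4. Related genes with different names shared module 1, as PFKFB3 with PFKFB4, pim2 with PIM3, sgk1 with SGK3, grk5 with GRK6 and CDK15 with CDK17. All of these are among the 47 chosen for lying there, so their sharing it follows from the choice. Relatives outside the 47 also lay elsewhere, as MKNK2 and PRKCI in module 2 and jak3 in module 3. Where 2 identifiers carry 1 symbol, which zebrafish copy each is, and whether reads were split between copies, is not known.

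Ligands of the tyrosine kinase receptors were spread over 6 modules. Of 13 growth factor genes found in any module, fgf1b, hbegfa and pros1 lay there (23.1%, against 33.4% of all named genes). Their known receptors in mammals differ: hbegfa stands for a ligand of EGFR and ERBB4, pros1 for protein S, a ligand of tyro3, and fgf1b for a ligand of FGF receptors. The ephrins lay elsewhere, EFNA1 on 2 identifiers in modules 3 and 8, EFNB2 in module 2 and EFNB3 in module 5. Symbols of the neuregulins nrg1 and nrg2 and of the ErbB partner erbb2 are in the name table and matched no gene of a module.

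Besides TGFBR2, 8 of 15 further genes of TGF-beta and BMP signalling lay in module 1 (53.3%, exact interval 26.6% to 78.7%). That interval takes in the 33.4% of all named genes. The 8 were the ligands tgfb1b, BMP4 and GDF5, the extracellular modulator FSTL1, the ubiquitin ligase SMURF1, the repressor skilb, and targets ID1 and ID2. The signal carriers SMAD1 and SMAD3 lay in modules 2 and 4, and the inhibitory SMAD7 and the ligand tgfb1a in module 2. The TGF-beta row of the module 1 chart holds 13 genes, and in the authors' deposited table its adjusted p is 0.798.

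Of 14 JAK-STAT partners 5 lay in module 1 (35.7%), near the 33.4% of all named genes. They were STAT3, a main target of JAK1, the restrainers cishb and socs5b, and the receptor genes crfb1 and il2rb. The 2 identifiers of SOCS3 lay in modules 2 and 4. ERK pathway partners lay 10 of 32 in module 1 (31.2%), also near that share. Among them were egr1, FOSL1, FOSL2, JUNB and MYC, genes switched on by growth signals, and spred2a, which restrains Ras signalling. The remaining 4 were DUSP5, RASA1, SOS2 and the small GTPase MRAS. Other genes of this list switched on by growth signals lay elsewhere, FOS, EGR3 and ier2b in module 2 and JUN and JUND in module 5. The ERK phosphatases DUSP4 and DUSP6 also lay in module 5. Of the PI3K and mTOR partners 3 of 16 lay in module 1, FOXO1, rragca and PHLPP1, and 4 each in modules 5, 6 and 7. The share in module 1 was 18.8%, with an exact interval of 4.05% to 45.6% that takes in the 33.4% of all named genes. Hippo partners lay 5 of 11 in module 1, CCN1, AMOTL2, dchs1b, FAT3 and VGLL4. That is 45.5%, with an exact interval of 16.7% to 76.6% that also takes in the 33.4%.

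Genes on a list of protein and lipid phosphatases, with relatives and subunits, lay in module 1 in 16 of 37 cases (43.2%, exact interval 27.1% to 60.5%). They include the receptor phosphatases ptprc, ptprja, ptprdb and ptprsa, the subunits PPP2R5A and PPP2R1B of phosphatase 2A, the phosphatase 1 subunit ppp1r15a, and PDP2. The remaining 8 were PTP4A1, PPM1K, MTMR12, MTMR14, PLPP1, PLPP3, PTPN9 and PTPN21. A further identifier named PLPP1 lay in module 7, and ptpn9b lay in module 4. PDP2 reverses what PDK2 does to pyruvate dehydrogenase, and it lay in module 1, as did the PDK2 identifier described above. That identifier was chosen for lying there. The further identifier named PDK2 and the related kinase gene PDK4 lay in module 6, so these genes do not set module 1 apart. PPM1E was not on the phosphatase list. Over all 7 partner lists, 50 of 138 genes lay in module 1 (36.2%), near the 33.4% of all named genes.

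**Figure D3:**
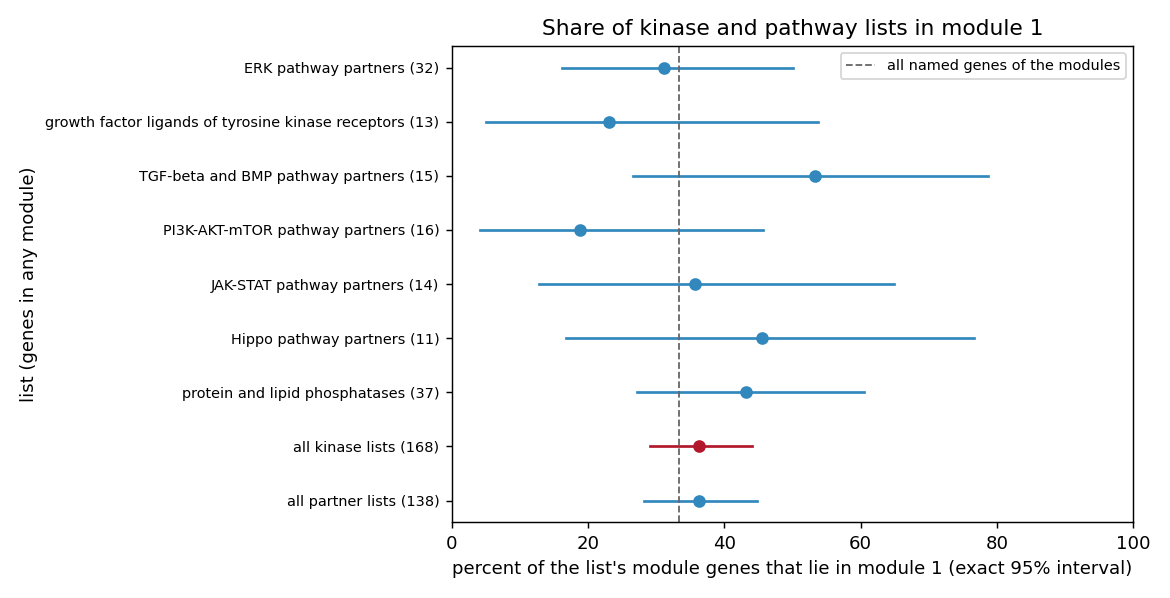
Points show the percent of each list's genes that lie in module 1, with exact 95% intervals that cover counting error only, for 7 lists of pathway partners (blue) and for all kinase and all partner lists together; the dashed line is the share of all named genes, 33.4%. Every interval takes in the dashed line, from the lowest point at 18.8% to the highest at 53.3%.

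Marker lists of cardiomyocytes and of other cell types were looked up in the same way. Over all lists, 16 of 53 identifiers matched by a marker lay in module 1 (30.2%, exact interval 18.3% to 44.3%). That is near the 33.4% of all named genes. Some cardiomyocyte markers matched 2 identifiers, as TTN and MYH6, and others, as vmhc and pln, matched none. All 15 identifiers that cardiomyocyte markers matched, among them MYL7, actc1a and nppa, lay outside module 1. The exact interval of that share is 0% to 21.8%. Several of these identifiers go with the same marker and need not fall independently, so the interval is no test against the 33.4%. Leukocyte markers lay 3 of 13 in module 1, among them ptprc and LCP1, and 8 in module 3. Endothelial markers lay 2 of 9 in module 1, cdh5 and vwf, and 5 in module 3. Markers of fibroblasts and epicardium lay 4 of 6 in module 1, on identifiers named col1a1a, COL1A1, FN1 and DDR2. The others were DCN in module 3 and COL1A2 in module 4. Markers of smooth muscle and pericytes lay 4 of 6 in module 1, MYH11, CNN1, CSPG4 and 1 of 2 identifiers named TAGLN. The other TAGLN lay in module 5 and acta2 in module 7. The exact interval of 4 of 6 runs from 22.3% to 95.7% and takes in the overall share. Of 5 thrombocyte markers only THBS1 and GP1BB matched a gene of any module, and both lay in module 1 (exact interval 15.8% to 100%). Of 6 erythrocyte markers only gata1a, in module 1, and SLC4A1, in module 2, matched. FGR is a kinase known from blood cells of mammals. No file gives the level of these genes in any cell, and the part of other cell types in the make-up of module 1 was not tested.

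Position gave little more. In the deposited list of module 1 the identifiers form several ascending runs, whose meaning is not given, and 35 of the 47 (74.5%) stood in the first, as did 1085 of all 1543 genes (70.3%).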

How the data were processed

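Single border zone cells from 3 wildtype and 4 hmga1a mutant plates were made into SORT-seq libraries, per the labels' protocols. The submitters' processing notes name Seurat; the sources used here do not name the aligner, the genome build or the way the modules were made. The authors deposited 8 lists of Ensembl identifiers without values and 8 annotation charts. Per the file headers, each chart row gives the count of module genes in a term, their percent of the list, the fold enrichment over a background, and the p-value and adjusted p-value. Members were read from the charts by the rule given in the text. Symbols came from a name table (3651 of 4449 genes, 82.1%). Lists were matched ignoring case, and lower-case symbols also without a final a or b. The members and lists were chosen with earlier results of these data known. Members and list genes in module 1 are named, except a few that are not reported here; list genes elsewhere are examples chosen after their modules were seen, not the planned choice by deposited order. No test was run; matching was tested on simulated data. Shares carry exact 95% binomial intervals, for counting error alone; genes do not replicate fish. Protein sequences were not analysed here. Python 3.11.15, pandas 2.3.3, SciPy 1.17.1 and matplotlib 3.10.9 were used. Alternatives varied the chart rows, the name matching and the modules counted.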

Additional observations from a re-analysis of the deposited data

How the results depend on the processing

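The 47 genes were the same number from either kinase row alone, and 58 with no identifier left out. Taking every row that names a kinase or phosphorylation gave 91; such rows also cover dephosphorylation and oxidative phosphorylation, and the protein kinase rows hold 12 further genes. Neither row has an adjusted p under 0.05 in the authors' deposited table, so a selection at that threshold gave no gene. The share of kinase list genes in module 1 was 33.6% to 37.9% with exact symbols, the first ascending runs, module 7 left out, or capitals also matched without a final a or b, against 36.3% as reported. It was 17.1% without the 47, which by construction lie in module 1. Of all named genes, 32.5% lay in module 1 without the 47, and 32.2% to 36.8% under the other 4 alternatives. For the pathway partners the share was 34.5% to 37.6% under the same 4 alternatives, against 36.2%. Matching of capitals was chosen after seeing the data. Terms with a deposited p under 0.05 left 38 of 51. Names by Ensembl identifier from the RefSeq table were not run, since its identifier column was empty in the table used, nor were protein motifs and identities. No paired analysis was possible because the files give no value per plate. Depth per plate is unknown.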
